A study of Mus musculus with 20 samples.

Results

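The B cell receptor and B cell surface genes followed here are Cd79a, Cd79b, Ighm, Igkv6-23, Ms4a1, Fcer2a, Cd72 and Cd22, 8 of the 8251 mouse genes that have a probe set of their own on 20 short-oligonucleotide arrays. Every probe set that the platform annotation assigns to these symbols was taken, 28 of 12422 without the platform's controls. Of these, 24 carry 1 of the symbols alone, namely 16 for Ighm, 2 for Ms4a1 and 1 for each of the other genes. The remaining 4 carry several immunoglobulin symbols and were counted but not named. The genes had been picked because they were lower on the Glucose than on the Con adipose arrays, so their values in that contrast are a description and carry no test.

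The study set out to examine sleep apnea in relation to glucose metabolism. Subcutaneous adipose tissue was hybridised on 8 arrays in 4 groups of 2, titled GlucoseHyp, GlucoseNonHyp, ConHyp and ConNonHyp. The labels name 12-week-old C57BL-6J and C57BL-6J-Lep mice (Lep is the gene of the fat hormone leptin) but do not tie an array to a strain, and they leave the words Con and Glucose unexplained. Hyp mice breathed oxygen that cycled between 20.9% and 5% within 30 sec and was brought back to 20% in another 30 sec, for 16 hours a day on 5 days, and NonHyp mice received intermittent room air. Lung, skeletal muscle, heart and brain of 20-week-old C57BL-6J mice filled 12 further arrays, 1 for each tissue after sleep fragmentation (repeated interruption of sleep), after hypoxia and in control mice. Nothing in the labels says that arrays of a group came from separate animals, so p-values here measure only the spread between arrays.

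The B cell receptor is a membrane-bound immunoglobulin, made of heavy chains such as the mu chain from Ighm and of light chains such as kappa, and it signals through the paired chains CD79A and CD79B. CD20 (Ms4a1), CD23 (Fcer2a), CD72 and CD22 sit beside it on the same membrane, and CD72 and CD22 damp its signal by recruiting the phosphatase SHP-1. B cells circulate through most tissues, are numerous in lung and spleen, occur in fat among the stromal cells, and fill the follicles of lymph nodes, 1 of which lies within the inguinal fat pad. Cells that have turned into plasma cells keep immunoglobulin transcripts at high levels while they lose most of the surface proteins named above.

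The values are intensities on a linear scale, with no count of molecules behind them, and the number of arrays limits the precision. On the adipose arrays 17.5% to 21.2% of the values lay at or below 0, so values under 97.7 were set to 97.7, a floor of 6.61 on the log2 scale, and a fold with arrays of the lower group at that floor is written "at least". No value of the other tissues lay at or below 0, unlike in fat, and no level is compared between fat and those tissues. Their 12 arrays were quantile normalized together and 97.7 was added before log2, which understates differences of dim genes. Adipose marker genes summed to 60232 to 130770 on the Glucose arrays and to 89258 to 164067 on the Con arrays, and skeletal muscle markers to 15136 to 115425 on the Glucose and 55001 to 166604 on the Con arrays, so muscle RNA was measured there too. In the panel, the summed markers of brain, heart and skeletal muscle were highest in their own tissue, but the heart marker Myl2, also a gene of slow muscle fibres, had 2483 to 5061 in muscle and 118 to 894 in heart. Of the lung markers, Sftpb ran from 4516 to 7332 and Ager from 7281 to 9342 in lung, but Sftpc, the surfactant protein of alveolar cells, was no higher in lung (10.3 to 893) than elsewhere (433 to 1014). Scgb1a1 of airway secretory cells read 12924 on the control brain array, above the 314 to 8720 of the lung arrays. The trimmed mean of the brain hypoxia array before normalization was 2671, against 793 to 799 on the other 19 arrays.

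Promoter sequences are shown for the members that RefSeq's table of the GRCm38.p6 build holds with a B cell motif, because these genes were low together on the Glucose arrays. The table held 4 of the 8 genes. Each sequence is the 250 bases before the start that this table lists for the gene, which for Cd72 and Cd22 lies inside the gene's annotated span, read 5′ to 3′ on the gene's own strand, and capitals mark the motif.
Cd79a, chr7:24897247-24897496, plus strand: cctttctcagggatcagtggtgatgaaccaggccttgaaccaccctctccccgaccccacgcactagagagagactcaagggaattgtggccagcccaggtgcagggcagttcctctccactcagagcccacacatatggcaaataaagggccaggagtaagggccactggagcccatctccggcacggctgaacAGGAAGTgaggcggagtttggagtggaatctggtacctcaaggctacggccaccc
Cd72, chr4:43454627-43454876, minus strand: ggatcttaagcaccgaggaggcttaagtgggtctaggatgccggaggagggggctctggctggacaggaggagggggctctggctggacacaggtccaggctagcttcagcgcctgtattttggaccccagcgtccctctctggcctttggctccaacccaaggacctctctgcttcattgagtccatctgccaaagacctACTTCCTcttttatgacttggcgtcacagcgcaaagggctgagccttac
Cd22, chr7:30879029-30879278, minus strand: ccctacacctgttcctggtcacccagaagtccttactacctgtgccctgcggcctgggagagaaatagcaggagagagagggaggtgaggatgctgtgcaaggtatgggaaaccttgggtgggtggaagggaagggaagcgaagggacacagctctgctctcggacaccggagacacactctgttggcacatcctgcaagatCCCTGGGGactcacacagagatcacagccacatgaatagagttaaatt
The capitals in Cd79a are AGGAAGT, a core bound by factors of the ETS family such as PU.1, at -55 to -49 from the listed start. In Cd72 they are the same letters on the other strand, ACTTCCT, at -49 to -43. The capitals in Cd22 fit CCCNNGGG, the palindrome bound by early B cell factor, at -48 to -41. Neither motif was found in the windows of the 3 starts listed for Fcer2a, and the octamer ATGCAAAT, bound by Oct factors at immunoglobulin genes, was found in none of the windows searched. Searched on both strands, AGGAAGT occurs in 7.69%, CCCNNGGG in 11.82% and ATGCAAAT in 1.6% of all 32851 promoter windows of that length, so the first 2 are common strings, and they were chosen after the sequences had been seen.

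On the adipose arrays, most members outside Ighm lay lower on the Glucose arrays, while the Ighm probe sets differed among themselves. Of the 24 probe sets, 11 had all 4 Glucose arrays below all 4 Con arrays and 0 had them above. Of the 13 members that passed a filter on dim probe sets and were tested, 10 had them below. Over all 7453 probe sets tested, 8.33% were lower without overlap and 11.4% higher. Since the members were picked from this contrast, nothing is read from those counts. The median log2 difference, Glucose minus Con, was -0.89 over all 24 and -2.33 over the 13 tested, against 0.04 over all probe sets tested. The filter uses the mean of all 8 arrays, so bright Con arrays alone could bring a member past it. In such bulk tissue, fewer cells of a type and less RNA per cell cannot be told apart.

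Cd79a (chr7:24897497-24901858) and Cd79b (chr11:106311341-106314562) encode the signalling chains of the receptor. Cd79a read -421 and -25.1 on the GlucoseHyp arrays and -328 and 162 on the GlucoseNonHyp arrays, against 1677 and 2431 on the ConHyp and 1881 and 2020 on the ConNonHyp arrays. On 3 of the 4 Glucose arrays it was at the floor, and the log2 levels averaged 6.79 ± 0.36 on Glucose and 10.95 ± 0.22 on Con arrays (SD, n = 4 each), at least 17.9-fold lower on Glucose. Cd79b read -87.4 and 217 on GlucoseHyp and 373 and 311 on GlucoseNonHyp arrays, against 2134 and 2713 on ConHyp and 1205 and 1479 on ConNonHyp arrays. The groups did not overlap, and the difference was at least 8.05-fold. The lowest Con value of either gene was several times its highest Glucose value.

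Igkv6-23 (chr6:70260409-70260933), a variable segment of the kappa light chain, was also lower. Its probe set, whose suffix _f_at marks probes shared within a gene family, read 949 and 428 on GlucoseHyp and 190 and 81.2 on GlucoseNonHyp arrays. The Con arrays read 22568 and 18318 in ConHyp and 12263 and 14946 in ConNonHyp. On the log2 scale the Glucose arrays averaged 8.20 ± 1.42 and the Con arrays 14.02 ± 0.38 (SD, n = 4 each), at least 56.3-fold lower on Glucose. The spread among the Glucose arrays was thus wider than among the Con arrays.

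Ms4a1 (chr19:11249679-11266149), which encodes the B cell surface protein CD20, has 2 probe sets. The probe set 99446_at read 193 and 24.9 on GlucoseHyp and 169 and -90.6 on GlucoseNonHyp arrays, against 2156 and 2109 on ConHyp and 1551 and 2430 on ConNonHyp arrays, at least 15.3-fold lower on Glucose. The probe set 104173_at read 789 and 1408 on GlucoseHyp and 452 and 415 on GlucoseNonHyp arrays, against 4358 and 3206 on ConHyp and 2858 and 3170 on ConNonHyp arrays, 4.96-fold lower on Glucose. Neither overlapped between Glucose and Con, and the second kept signal well above the floor on every Glucose array.

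Fcer2a (chr8:3680280-3694174), the low-affinity IgE receptor CD23 of mature B cells, was measured above the floor on all 8 arrays. It read 539 and 225 on GlucoseHyp and 148 and 197 on GlucoseNonHyp arrays, against 1057 and 1598 on ConHyp and 709 and 1864 on ConNonHyp arrays, 5.01-fold lower on Glucose. The gap between the groups was narrow, since the highest Glucose array lay at 539 and the lowest Con array at 709.

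The inhibitory co-receptors Cd72 and Cd22 gave no signal above the floor on any Glucose array. Cd72 (chr4:43447724-43455102) lay at the floor on all 4 Glucose arrays and read 342 and 609 on ConHyp and 284 and 335 on ConNonHyp arrays, at least 3.84-fold lower on Glucose. Cd22 (chr7:30865404-30880342), a lectin that binds sialic acid, lay at the floor on the same 4 arrays and read 90.2 and 906 on ConHyp and 256 and 270 on ConNonHyp arrays. Since 1 ConHyp array was also at the floor, Cd22 was not free of overlap and no fold is given. A filter on dim probe sets fell between these genes: Cd72 passed with a mean log2 level of 7.58 and Cd22 missed it with 7.37, at a threshold of 7.38.

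**Figure D1:**
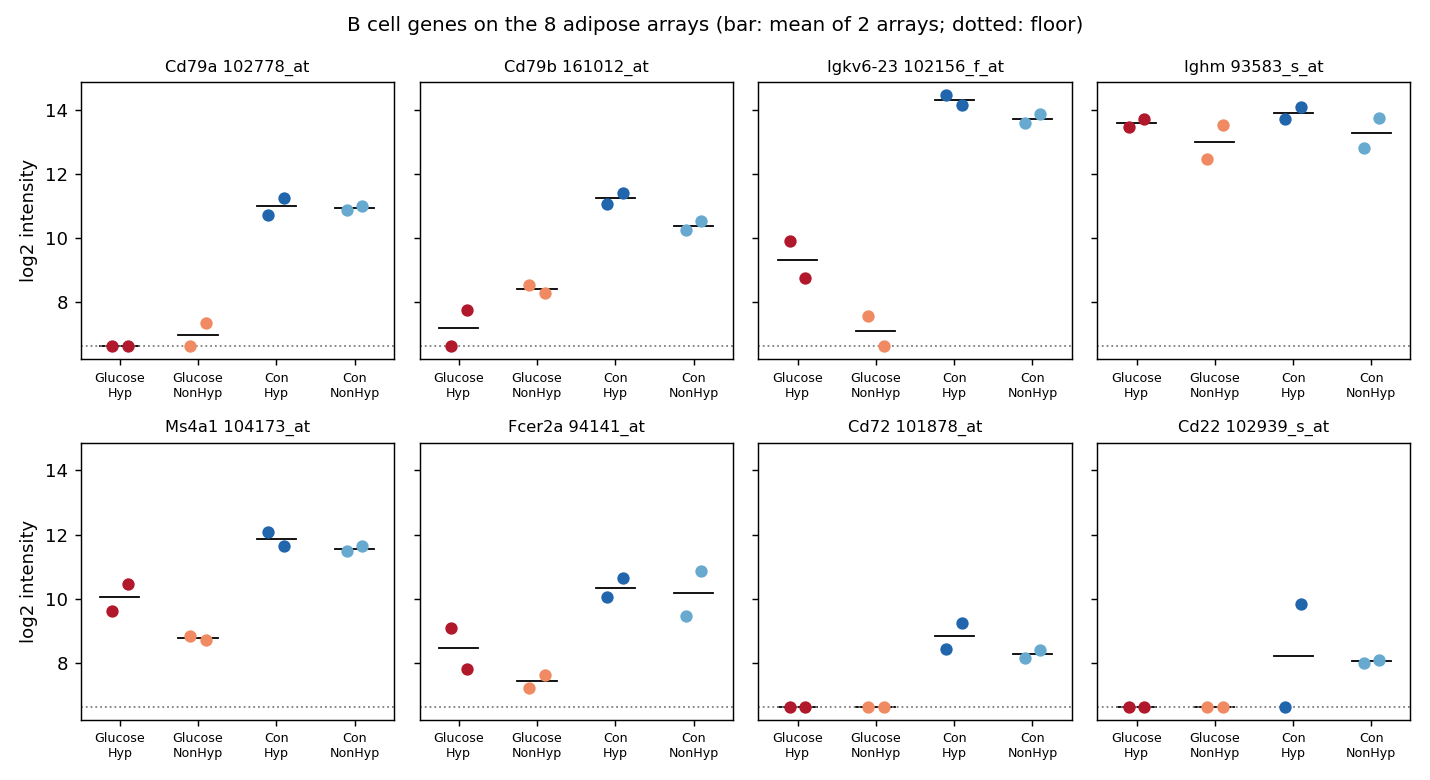
Log2 intensity of 1 probe set for each of the 8 genes on the adipose arrays, by group, with a point per array, a bar at the mean of 2 arrays and a dotted line at the floor of 6.61. Cd79a, Cd72 and Cd22 lie at or near the floor on the Glucose arrays, Ms4a1 104173_at lies lower on Glucose but above the floor, while the Ighm probe set 93583_s_at overlaps between all 4 groups.

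The 16 probe sets of Ighm (chr12:113418826-113422730), the constant region of the mu heavy chain, did not move as 1. Their log2 differences, Glucose minus Con, ran from -4.24 to 0.11. The probe set 93583_s_at, whose suffix _s_at marks probes shared between transcripts, read 11330 and 13290 on GlucoseHyp and 5675 and 11727 on GlucoseNonHyp arrays, against 13311 and 17480 on ConHyp and 7179 and 13729 on ConNonHyp arrays. The probe set 93584_at read 3585 and 2731 on GlucoseHyp and 1438 and 2458 on GlucoseNonHyp arrays, against 3041 and 5436 on ConHyp and 2871 and 4604 on ConNonHyp arrays. Both overlapped between Glucose and Con, with log2 differences of -0.30 and -0.66. So these 2 Ighm probe sets kept signal on arrays where Cd79a was at the floor.

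Other Ighm probe sets behaved like Cd79a. The probe set 101870_at lay at the floor on all 4 Glucose arrays and read 1011 and 2222 on ConHyp and 5292 and 977 on ConNonHyp arrays, at least 18.9-fold lower on Glucose. For 100362_f_at the Glucose arrays read -139 and 160 in GlucoseHyp and 165 and 176 in GlucoseNonHyp, against 960 and 1586 in ConHyp and 1319 and 820 in ConNonHyp, at least 7.77-fold lower on Glucose. The probe sets 97577_f_at and 101745_f_at were at the floor on every Glucose array and on no Con array, at least 4.76-fold and 2.17-fold lower on Glucose. Thus 4 of the 16 were lower on Glucose without overlap. A further 5 were at the floor on all 8 arrays, with no reading above 65.9, and 101346_at ran from 122 to 437 on Glucose and from 120 to 342 on Con arrays. The 4 remaining ones, 100377_f_at, 101749_at, 101871_f_at and 102159_at, never read above 291. The 4 probe sets with several immunoglobulin symbols had log2 differences of -3.39 to -0.30, also spread between both patterns. Which part of a mu transcript each probe set reads is not given in the annotation used.

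**Figure D2:**
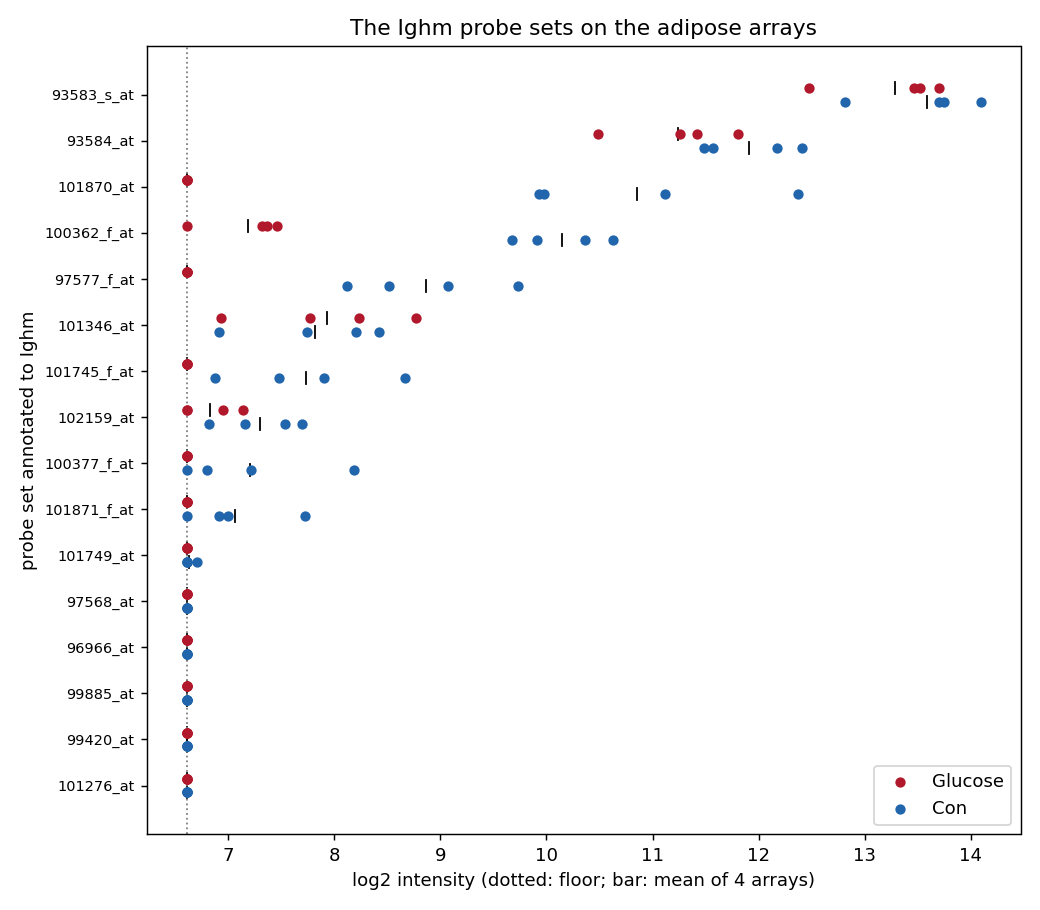
Log2 intensity of the 16 Ighm probe sets on the 4 Glucose and the 4 Con adipose arrays, with a bar at the mean of each group and a dotted line at the floor. The probe sets 93583_s_at and 93584_at overlap between the groups, 4 lie apart with Glucose lower, and 5 are at the floor on all 8 arrays.

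Among the 4 Con arrays the members also varied. Of the 11 probe sets without overlap, the array numbered 2 of ConHyp was the highest Con array in 6 and the array numbered 1 of ConNonHyp the lowest in 7. Without both Con arrays numbered 1, the median log2 difference over the 24 probe sets was -1.25.

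Correlation with Cd79a over the 8 adipose arrays, in log2 levels, was graded among the members. Pearson's r was 0.97 for the Ms4a1 probe set 99446_at, 0.97 for Cd72, 0.94 for Cd79b and 0.92 for Igkv6-23, and 0.98 for the Ighm probe set 100362_f_at. It was 0.34 for the Ighm probe set 93583_s_at and 0.63 for 93584_at. In between lay Fcer2a and Ms4a1 104173_at (0.87 each), Ighm 101745_f_at (0.79), Cd22 (0.73) and Ighm 101871_f_at (0.64). Among probe sets of other genes, those most like Cd79a were Cd8b1 (0.993), a chain of the T cell co-receptor CD8, Ccl5 (0.993), a chemokine of T cells and other leukocytes, Plac8 (0.991), Coro1a (0.987), an actin-binding protein of leukocytes, and Tpp2 (0.987), a peptidase. The points share the split into Glucose and Con, so these values are descriptions.

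Other genes of the B cell receptor pathway were lower on the Glucose arrays in part. These and the other gene lists were chosen with low levels on the Glucose arrays already known, so their counts and p-values in this contrast are descriptions. A listed gene at the floor on all 4 Glucose arrays could pass the filter on dim probe sets only through the Con arrays. Of 10 tested genes of receptor signalling, 4 passed limma's adjusted threshold of 0.05 as lower and 0 as higher, against 3.54% lower and 4.04% higher of all probe sets tested. The 4 were Ptprc, the phosphatase CD45 of all white blood cells (at least 8.54-fold, with 2 Glucose arrays at the floor), Btk, a kinase downstream of the receptor (at least 3.53-fold, with 1 at the floor), Prkcb (-1.85 ± 0.26 on the log2 scale, SE) and Blk (-1.88 ± 0.32), a kinase of the Src family in B cells. Syk, the kinase that binds the tails of CD79A and CD79B, differed by -0.90 ± 0.23 with a limma adjusted p of 0.0601. The median over the 10 was -1.01, against 0.04 over all probe sets tested.

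Of 11 tested inhibitory and survival receptors, 3 passed as lower and 0 as higher, with a median of -0.86. They were Ptpn6, the phosphatase SHP-1 recruited by CD22 and CD72 (at least 8.49-fold), Cd37 (-2.79 ± 0.36), a membrane protein of mature B cells, and Cxcr5 (at least 2.56-fold), the chemokine receptor that leads B cells into follicles, with Ptpn6 and Cxcr5 at the floor on 2 Glucose arrays each. Of 11 tested transcription factors of B cells, 2 passed as lower, Pou2af1 (at least 4.83-fold), a co-activator of Oct factors that was at the floor on all 4 Glucose arrays, and Irf4 (at least 6.84-fold), which was at the floor on 3. Pax5, the factor that keeps B cell identity, differed by -0.46 ± 0.33, and Ebf1 by 0.46 ± 0.28, neither past the threshold. Xbp1, which plasma cells need for secretion, differed by 0.07 ± 0.23, and Prdm1, their defining factor, was at the floor on all 8 arrays.

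Of 4 tested other immunoglobulin genes, Jchain, the joining chain of secreted IgM and IgA, was lower at 388, 269, 383 and 196 on Glucose arrays against 1037, 1432, 807 and 1190 on Con arrays, a log2 difference of -1.88 ± 0.32 (limma adjusted p = 0.0140). Ighg3, the constant region of IgG3, was also lower, with a log2 difference of -1.70 ± 0.40 (limma adjusted p = 0.0450), and the other 2 did not pass. These p-values are descriptions, since the list was chosen with low Glucose levels known. Of 6 tested genes of pre-B cells 0 passed, in a contrast where 1789 of 7453 probe sets had an unadjusted p under 0.05.

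Markers of other cells moved with the members on the same arrays. The T cell list summed to 2647 to 3723 on Glucose and 8119 to 11776 on Con arrays. Of its 8 tested genes 7 had a negative difference and 4 passed as lower, against 3.54% of all probe sets tested. On every Glucose array 7 of its 16 genes lay at the floor. Among these, Cd3d, Cd3g, Cd8a and Cd8b1 were at the floor on no Con array, while Cd3e and Cd5 were at it on 3 Con arrays. The list of lymph node stroma and homing genes summed to 2241 to 3072 on Glucose and 7377 to 14065 on Con arrays. Of its 8 tested genes 6 had a negative difference and 5 passed as lower, and Glycam1 and Ltb lay at the floor on every Glucose array. Glycam1, a mucin of the high endothelial venules of lymph nodes, was among the 5, as was Cxcl13, the chemokine of B cell follicles. The MHC class II genes, used by B cells, dendritic cells and macrophages, summed to 9317 to 19442 on Glucose and 56025 to 72587 on Con arrays. All 10 tested ones had a negative difference and 9 passed as lower. H2-DMb2 and H2-Ob, both among the 9, lay at the floor on all 4 Glucose arrays. The counts of these lists are descriptions, since the lists were chosen with low Glucose levels known.

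Macrophage markers summed to 39508 to 82626 on Glucose and 67958 to 81268 on Con arrays, which overlap. Of 16 tested genes 13 had a negative difference, with a list median of -0.71, and 1 of them, Marco, passed as lower. Marco was at the floor on all 4 Glucose arrays. C1qa, a complement subunit made by macrophages, differed by -1.56 ± 0.38 (limma adjusted p = 0.0518) and Lgals3, the lectin galectin-3, by 1.47 ± 0.41 (adjusted p = 0.0796), neither past the threshold. Of 7 tested neutrophil and mast cell genes 1 passed as lower. The part of these cells in the members' difference was not tested.

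Intermittent hypoxia was compared with room air in fat to ask whether the members responded to it, averaged over Glucose and Con. No probe set passed limma's adjusted threshold, 0 of 13 tested members and 0 (0%) of all 7453, with unadjusted p under 0.05 for 2 members and for 110 of all. The members' differences, Hyp minus NonHyp, ran from -0.30 to 1.41 on the log2 scale with a median standard error of 0.33, and their limma adjusted p was 1.0 throughout. Their median was 0.28, against 0.02 over all probe sets tested.

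The 2 members with an unadjusted p under 0.05 were Igkv6-23 and 1 probe set of Ms4a1. The hypoxia difference of Igkv6-23 was known when the members were chosen, so its values here are a description. Igkv6-23 differed by 1.41 ± 0.35 (SE), with both GlucoseHyp arrays (949 and 428) above both GlucoseNonHyp arrays (190 and 81.2) and both ConHyp arrays (22568 and 18318) above both ConNonHyp arrays (12263 and 14946). The Ms4a1 probe set 104173_at differed by 0.80 ± 0.27, again with the Hyp arrays above the NonHyp arrays among the Glucose and among the Con arrays. The other Ms4a1 probe set, 99446_at, differed by 0.11 ± 0.33, and Cd79a by -0.16 ± 0.26. Arrays at the floor entered these fits at the floor. Members of the same receptor thus gave differences on both sides of 0, each short of the threshold.

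Within the Con arrays, 0 members passed (0% of all probe sets), with 1 member and 218 probe sets at an unadjusted p under 0.05. Within the Glucose arrays, 0 members passed (0% of all), with 3 members and 159 probe sets at an unadjusted p under 0.05. These 3 were Igkv6-23 (2.22 ± 0.50), Ms4a1 104173_at (1.28 ± 0.38) and Cd79b (-1.23 ± 0.44). The tested members Ighm 101870_at, Ighm 97577_f_at and Cd72 lay at the floor on all 4 Glucose arrays and could show no difference there. The hypoxia effects of Glucose and Con were also set against each other, and 0 members passed that test (0% of all), with 1 member and 246 probe sets at an unadjusted p under 0.05. That member was Cd79b, whose effect on Glucose minus that on Con arrays was -2.08 ± 0.62, with a limma adjusted p of 0.999. In this test, members at the floor on all 4 Glucose arrays carried only their Con effect. For Cd79b 1 GlucoseHyp array and for Igkv6-23 1 GlucoseNonHyp array entered at the floor, so the size of their effects depends on it.

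In the tissue panel, a comparison that did not choose the members, lung had the highest levels of most of them. Of the 24 probe sets 11 passed the filter on dim ones, from 6 genes, and 10 of these 11 were higher in lung than in the mean of skeletal muscle, heart and brain. By limma 8 of 11 passed as higher and 1 as lower, against 28.1% higher and 33.7% lower of all probe sets tested. The median difference of the 11 was 1.75 on the log2 scale, against -0.10 over all probe sets tested. Since a probe set passed the filter by its highest tissue, those 11 do not stand for all 24, and the fit without the filter is given below. Cd79b, Fcer2a and the Ighm probe sets 99420_at and 100362_f_at, all among the 8, passed the filter through lung alone.

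Igkv6-23, the light chain segment, had normalized intensities of 6728, 7281 and 7040 in lung after sleep fragmentation, after hypoxia and in control mice. In the same order of conditions it read 244, 823 and 844 in skeletal muscle, 491, 469 and 734 in heart, and 125, 168 and 405 in brain. Each lung array exceeded each other array, and the difference was 3.79 ± 0.24 (SE), 13.9-fold, with a limma adjusted p of 1.15e-06. Muscle and heart did not differ past the threshold (0.03 ± 0.30, adjusted p = 0.953), and both lay above brain, by 1.11 ± 0.30 and 1.07 ± 0.30.

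The receptor's signalling chains were both higher in lung. Cd79b had 1801, 1195 and 2196 in lung, 239, 376 and 140 in muscle, 66.4, 151 and 54.9 in heart, and 269, 45.0 and 229 in brain. It was 7.07-fold higher in lung (2.82 ± 0.33, limma adjusted p = 4.91e-05), and the other tissues did not differ past the threshold in any pair. Cd79a had 2405, 1935 and 2938 in lung, 1057, 1577 and 1439 in muscle, 1416, 1171 and 1544 in heart, and 709, 740 and 670 in brain. The difference was 2.09-fold (1.06 ± 0.16, adjusted p = 0.000292), and with the deposited scaling in place of quantile normalization it was 0.90 and did not pass (adjusted p = 0.0589). Muscle and heart did not differ past the threshold for Cd79a (-0.03 ± 0.20), and brain lay below both, by 0.84 ± 0.20 and 0.87 ± 0.20.

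Fcer2a followed Cd79b, with 744, 540 and 664 in lung and no more than 226 on any other array. It was 3.36-fold higher in lung (1.75 ± 0.21, limma adjusted p = 6.38e-05), and muscle, heart and brain did not differ past the threshold in any pair. Ms4a1 did not separate lung from the other tissues. Its probe set 104173_at had 1821, 960 and 2541 in lung, 2052, 883 and 945 in muscle, 1426, 816 and 1064 in heart, and 624, 1532 and 1346 in brain. The groups overlapped widely, the difference was 0.52 ± 0.34 (limma adjusted p = 0.207), and no pair of tissues passed. The probe set 99446_at had 1189, 844 and 1608 in lung and 1232, 1099 and 686 in muscle, with a lung difference of 0.45 ± 0.23 (adjusted p = 0.111), and it passed in 1 pair, lung minus brain (0.88 ± 0.28, adjusted p = 0.0222).

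**Figure D3:**
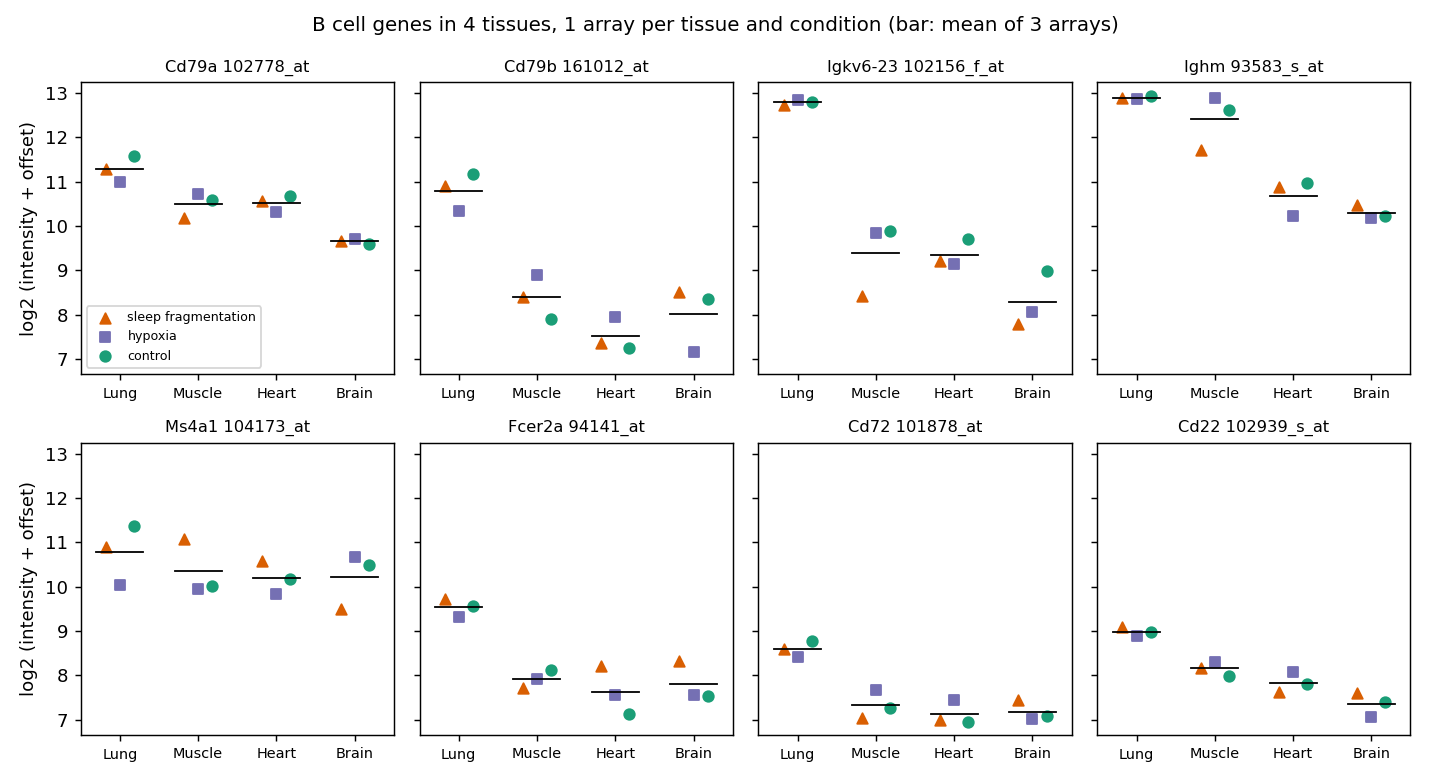
Log2 of normalized intensity plus offset in lung, skeletal muscle, heart and brain, for 1 probe set of each gene, with a symbol per condition (1 array each) and a bar at the mean of 3 arrays. Lung stands highest for Cd79b, Igkv6-23, Fcer2a, Cd72 and Cd22, lung and muscle stand together for Ighm 93583_s_at, and the tissues overlap for Ms4a1.

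Cd72 and Cd22 were too dim for the filter and were tested only in the fit of all 12422 probe sets. Cd72 had 290, 244 and 340 in lung and 26.8 to 107 on the other arrays, a difference of 1.38 ± 0.18 (limma adjusted p = 0.000223). Cd22 had 449, 379 and 403 in lung and 36.5 to 220 on the other arrays, a difference of 1.20 ± 0.16 (adjusted p = 0.000218). For both, each lung array exceeded each other array, as it did for 10 of the 24 member probe sets in 7 genes and 6 of the 11 that passed the filter, against 16.3% of all probe sets tested. In the fit without the filter 12 of the 24 member probe sets passed as higher in lung and 1 as lower. Of all 12422 probe sets 2585 (20.8%) passed as higher, and 5683 passed in either direction.

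Ighm had its own order of tissues. The probe set 93583_s_at had 7502, 7291 and 7753 in lung, 3255, 7458 and 6132 in muscle, 1783, 1095 and 1892 in heart, and 1319, 1067 and 1095 in brain. The probe set 93584_at had 2825, 1861 and 3564 in lung, 1442, 4574 and 3654 in muscle, 314, 192 and 341 in heart, and 228, 184 and 161 in brain. Both probe sets were dimmer in muscle than in lung after sleep fragmentation and brighter after hypoxia, while in control mice muscle was dimmer for 93583_s_at and brighter for 93584_at. Lung minus muscle was 0.49 ± 0.30 (limma adjusted p = 0.170) for the first and -0.12 ± 0.38 (adjusted p = 0.792) for the second, neither past the threshold. Against heart and brain both were higher in lung, by 2.21 ± 0.30 and 2.60 ± 0.30 for 93583_s_at and by 2.88 ± 0.38 and 3.26 ± 0.38 for 93584_at.

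Muscle was set against heart, the other striated muscle of the panel, and the members that passed were all from Ighm. They were 3 of 11, all higher in muscle, against 11% higher of all probe sets tested. The differences were 3.0 ± 0.38 for 93584_at (8.02-fold, limma adjusted p = 0.000347), 1.71 ± 0.30 for 93583_s_at (3.28-fold, adjusted p = 0.00229) and 1.18 ± 0.36 for 100362_f_at (2.27-fold, adjusted p = 0.0376). Igkv6-23 (0.03 ± 0.30), Cd79a (-0.03 ± 0.20), Fcer2a (0.29 ± 0.26) and the Ms4a1 probe sets (0.15 ± 0.42 and -0.03 ± 0.28) did not pass. The Cd79b difference was 0.87 ± 0.40 (adjusted p = 0.143). Without the filter, a further Ighm probe set, 101346_at, was higher in muscle at 329, 495 and 271 against 56.6, 47.5 and 43.2 in heart, a difference of 1.63 ± 0.23 (adjusted p = 0.00151).

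The remaining Ighm probe sets tested in the panel did not share 1 order. The probe set 100362_f_at had 1093, 879 and 1039 in lung, 428, 172 and 584 in muscle, 72.7, 224 and 53.7 in heart, and 139, 108 and 91.4 in brain, higher in lung by 2.03 ± 0.29. The probe set 99420_at had 624, 683 and 646 in lung and 103 to 217 elsewhere, higher in lung by 1.64 ± 0.11 (limma adjusted p = 2.02e-06). The probe set 97568_at ran the other way, with 100, 101 and 93.6 in lung against 172 to 959 elsewhere, a difference of -1.73 ± 0.28 (adjusted p = 0.000426). The probe set 101870_at, too dim for the filter here, had 21.6 to 54.8 in all 4 tissues.

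**Figure D4:**
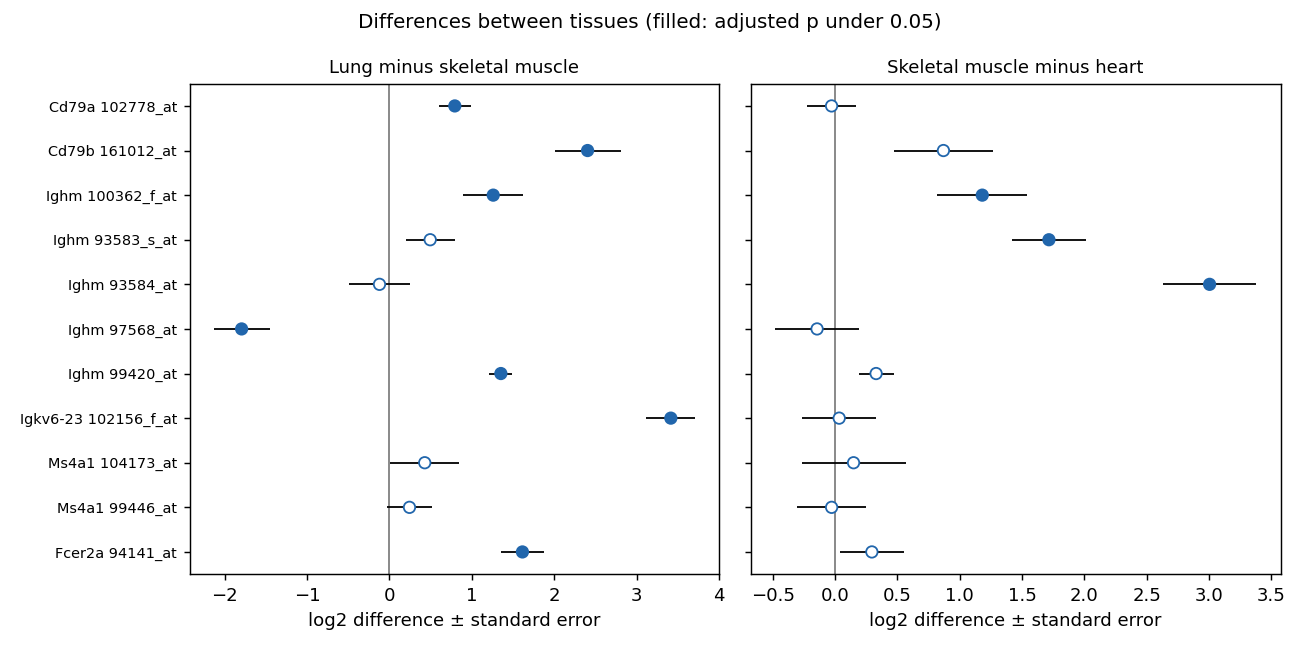
Log2 differences with standard errors for the 11 member probe sets tested in the panel, lung minus skeletal muscle on the left and skeletal muscle minus heart on the right, filled where the limma adjusted p is under 0.05. Ighm 93583_s_at and 93584_at do not pass on the left and pass on the right, while Igkv6-23, Cd79b, Cd79a and Fcer2a pass on the left and not on the right.

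Over the 6 pairs of tissues, 37 tests of member probe sets passed. Lung was higher than muscle for 6 of 11 (29.8% of all probe sets), than heart for 8 (25.2%) and than brain for 9 (24.2%), and lower for 97568_at in each (31.8%, 27.7% and 26.8% of all were lower in lung). Muscle was higher than brain for 6 (26.8% of all), namely 4 of Ighm with Cd79a and Igkv6-23, and heart was higher than brain for 2 (23.4% of all), Cd79a and Igkv6-23.

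In lung minus the mean of the other tissues, lists of other B cell genes gave calls in both directions. They are to be read against the 28.1% higher and 33.7% lower of all probe sets tested. Of 10 tested genes of receptor signalling, 5 passed as higher and 1 as lower, led by Ptprc (2.29 ± 0.25), Btk (1.65 ± 0.22), Nfatc1 (0.97 ± 0.25) and the adaptor Blnk (0.60 ± 0.19), with a list median of 0.46 against -0.10 over all probe sets tested. Of 4 tested inhibitory and survival receptors 3 passed as higher, Cd24a (2.03 ± 0.15), Cd37 (1.35 ± 0.28) and Ly86 (0.92 ± 0.25). Against muscle alone, Cd24a did not pass (lung minus muscle -0.18, limma adjusted p = 0.409). Nor did Nfatc1 (-0.14, adjusted p = 0.698) or Blnk (0.35, adjusted p = 0.218). The list of transcription factors gave 4 higher and 3 lower of 9, with Klf2 (3.04 ± 0.14), Irf8 (2.02 ± 0.20), Xbp1 (1.04 ± 0.14) and Pax5 (1.22 ± 0.38) higher and Ikzf1 (-0.93 ± 0.15) among the lower ones. Of 5 tested genes of pre-B cells 1 passed as higher and 2 as lower, with a median of 0.04. Of 5 tested other immunoglobulin genes, Igha (0.95 ± 0.23) and Jchain (0.69 ± 0.25) passed as higher and Ighd (-0.64 ± 0.18) as lower, and in muscle minus heart 0 of them passed. The heavy chain of IgA and the joining chain thus did not share the muscle signal of Ighm past the threshold. Against muscle alone, Pax5 (0.77, limma adjusted p = 0.177), Igha (0.66, adjusted p = 0.0639) and Jchain (0.40, adjusted p = 0.277) did not pass as higher in lung.

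Other cell types and RNA controls differed between the same arrays. MHC class II genes summed to 38257 to 45982 in lung and 4481 to 11949 in the other tissues. In lung minus the other tissues, 8 of their 10 tested genes passed as higher. Of 13 macrophage genes 7 passed as higher and 2 as lower. Over all probe sets tested, 28.1% passed as higher and 33.7% as lower. The list of lymph node stroma and homing genes summed to 10280 to 11861 in lung and 3703 to 6944 elsewhere. Of its 6 tested genes 5 passed as higher and 1 as lower. Neutrophil and mast cell genes summed to 10293 to 13171 in lung and 4765 to 7027 elsewhere, with 4 of 7 passing as higher and 1 as lower. Of 6 tested T cell genes 2 passed as higher and 4 as lower, and the list summed to 5056 to 7301 in lung and 5024 to 14344 elsewhere. For Actb, the 3′ control probe set divided by the 5′ one gave 0.0288 to 0.0635 on the lung arrays and 0.0343 on the brain hypoxia array, against 0.662 to 1.52 on the other arrays of the panel. The same quotient for Gapdh was 0.00899 to 0.264 on the muscle arrays and 0.136 on the hypoxia heart array, against 0.443 to 1.60 on the others. The part of these in the members' differences was not tested. Without the control or the hypoxia brain array, 9 member probe sets passed in lung minus the other tissues, as many as with them. All lung and muscle arrays stayed in those fits, so the counts say nothing about the control quotients of lung and muscle.

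Sleep fragmentation and hypoxia were each set against control across the 4 tissues. For sleep fragmentation, 0 of 11 members passed by limma (0% of all), with 1 member and 336 probe sets at an unadjusted p under 0.05. The member was Igkv6-23, with a log2 difference of -0.80 ± 0.26 and a limma adjusted p of 0.970. Igkv6-23 was lower than control in each tissue, at 6728 against 7040 in lung and 244 against 844 in muscle. In heart it read 491 against 734 and in brain 125 against 405. After hypoxia Igkv6-23 was also below control in muscle (823), heart (469) and brain (168), but not in lung (7281). For hypoxia, 0 of 11 members passed (0% of all), with 0 members and 371 probe sets at an unadjusted p under 0.05. The members' hypoxia differences ran from -0.39 to 0.00, with 10 of 11 below 0 and a median of -0.13, against 0.00 over all probe sets tested. Differences within a tissue rest on 1 array against 1 and have no test.

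Over the 12 panel arrays, the log2 levels of Cd79a correlated with those of Igkv6-23 at a Pearson's r of 0.89, of Cd22 at 0.87, of Ighm 93583_s_at at 0.82, of Cd79b at 0.69 and of Ms4a1 104173_at at 0.37. The genes outside the set most like Cd79a there were Plpp1 (0.964), a lipid phosphatase, Acvrl1 (0.958), a receptor kinase of endothelial cells, Ctsc (0.950), a lysosomal peptidase, Gimap1 (0.948), a GTPase of lymphocytes, and Cd99 (0.947), a surface protein. None of these 5 was among the 5 most like it in fat. The 12 points share 4 tissues, so these values describe the order of tissues and nothing finer.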

How the data were processed

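The sources are 20 deposited tables of intensity per probe set on a linear scale, 1 per array, scaled by the authors to a common mean on 19 of them as their values show. How probes were summarised was not given in the sources used here. Probe sets were named through the platform annotation, which gives 1 symbol to 10833 of 12422, several to 396 and none to 1193. The offset or floor of 97.7 is the percentile 20 of all positive values. Each fit kept the 7453 probe sets above the 40th percentile, by the mean in fat and by the highest tissue mean in the panel. Tests were two-sided and used lmFit and eBayes of limma (version 3.58.1, R 4.3.3), with Benjamini-Hochberg adjustment over all probe sets tested and a threshold of 0.05. In fat 4 group means were fitted, which left 4 residual degrees of freedom, and in the panel tissue and condition, which left 6. The fitting code was tested on simulated data first. A gene outside the set was represented by its brightest probe set, and up to 4 genes of a list were named, those passing by smallest p first. Some names outside that rule (Syk, Pax5, Ebf1, Prdm1, the floor genes, Myl2, and Xbp1 in fat) were chosen after their values were seen. The members and the gene lists were chosen with earlier results of these data known, among them the low levels on Glucose arrays and the hypoxia difference of Igkv6-23.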

Additional observations from a re-analysis of the deposited data

Results flagged for a closer look

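On the 4 Glucose adipose arrays, the Ighm probe set 100362_f_at had 1 array far from the others. The array numbered 1 of GlucoseHyp read -139 and was set to the floor, while the other 3 read 160, 165 and 176, and the gap made up 0.840 of the range on the log2 scale, above Dixon's critical value for 4 samples. Of 28 groups examined, those with 3 arrays at the floor left out, 1 was marked, and chance marks about 1 in 20. All 4 values lay below the 820 to 1586 of the Con arrays.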

How the results depend on the processing

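The count of members passing in lung minus the other tissues was 9, and it stayed at 9 with any 1 of the 12 arrays left out, with medians set equal and with the smaller offset of 44.2. It was 13 without the filter and 6 with the deposited scaling, where Cd79a fell short (0.90) and Fcer2a and Ighm 99420_at did not reach the filter, and there the count over tissue pairs was 20 in place of 37 (35 to 37 with 1 array left out). Over all probe sets, that scaling gave 2632 in place of 4604 for lung. The median log2 difference of the members, Glucose minus Con, was -0.89; it was -1.73 with a floor of 44.2, -0.54 with one of 177, -1.13 to -0.66 with 1 array left out, -1.13 within the arrays titled s2 and -0.75 within s4. With the replicate block on the letters a and b it was -0.89, and all hypoxia counts in fat were 0. The differences between a and b correlated at -0.14 to 0.41 between groups, which does not settle whether the letters pair arrays. On the Glucose arrays the letters a and b also coincided with s4 and s2. Over all probe sets, Glucose minus Con gave 565, against 381 without the filter, 240 to 459 with 1 array left out, 0 within s2 and 142 within s4. Without the filter, 4, 2, 4 and 3 of all probe sets passed for hypoxia in fat, within Con, within Glucose and in their difference, and 0 members. Tests within Con, within Glucose and of their difference could not be fitted within s2 or s4. In fat, 6 hypoxia differences changed sign, none past the threshold. With the floor of 177 they were 0.025 for Cd79a, 0.027 for Cd79b and 0.12 for Ighm 100362_f_at. Within s2 they were 0.33 for Cd79b and 0.065 for Ighm 100362_f_at, and within s4 0.19 for Ighm 101346_at and 0.025 for Ighm 101870_at. With 1 array left out, the range was -0.34 to 0.025 for Cd79a, -0.48 to 0.10 for Cd79b, -0.28 to 0.082 for Ighm 100362_f_at, -0.47 to 0.18 for Ighm 101346_at, -0.91 to 0.31 for Ighm 101870_at and -0.13 to 0.36 for Ms4a1 99446_at. Why these moved was not tested. Signal at the floor limits Cd72, Cd22 and most Ighm probe sets.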
